A study of Mus musculus with 7 samples.

Results

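The bone morphogenetic protein (BMP) arm of the transcriptome was followed through the cells of the mouse ventricular-subventricular zone (V-SVZ) with 10 genes, chosen by symbol from the 32285 genes in the files. They are the inhibitor of DNA binding genes Id1, Id2, Id3 and Id4, the ligands Bmp4, Bmp6 and Bmp7, and the receptors Bmpr1a, Bmpr1b and Bmpr2. The V-SVZ lines the lateral ventricles and holds neural stem cells (NSCs) that make olfactory neurons throughout life. It was dissected at postnatal day 31 to 33, with 2 to 3 mice of both sexes pooled per library, and single cells were read with the 10x Genomics 3′ assay, which counts unique molecular identifiers (UMIs) near the end of a transcript. The 3 control libraries came from mice with both Prdm16 alleles floxed and no Cre. The 3 Prdm16 conditional knockout (cKO) libraries carried 1 copy of the hGFAP-Cre transgene with both Prdm16 alleles floxed, and the single Prdm16-Vcam1 double knockout (DKO) library carried the same transgene with both alleles of Prdm16 and of Vcam1 floxed. Floxed Prdm16 is therefore shared by every group, and Cre was present in the knockout groups alone. hGFAP-Cre is driven by a human GFAP promoter that is active in embryonic radial glia, so neurons and glia that descend from them can carry the deletion, while vessel cells and microglia arise from other lineages.

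BMPs are secreted dimers that bind type I receptors (Bmpr1a, Bmpr1b) together with the type II receptor Bmpr2. The receptors phosphorylate Smad1, Smad5 and Smad9, which enter the nucleus with Smad4 and raise transcription of Id genes, the best known direct targets. Id proteins lack a DNA-binding region and pair with E proteins such as Tcf3, Tcf4 and Tcf12, which keeps these from partnering with lineage factors such as Olig1 and Olig2. In the V-SVZ, BMP signals and Id proteins are known for holding stem cells in a glial, quiescent state, and secreted antagonists such as Nog limit them.

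All 10 genes were found in the GENCODE vM21 annotation of build GRCm38 under the identifiers of the files. Id1 (ENSMUSG00000042745) lies at chr2:152736251-152737410 on the plus strand, Id3 (ENSMUSG00000007872) at chr4:136143497-136145755 on the plus strand, and Bmpr1b (ENSMUSG00000052430) at chr3:141837136-142169425 on the minus strand. Promoters of 300 bases (250 before and 50 after a RefSeq transcript start, build GRCm38.p6) were at hand for 8 of the 10 members, all but Id1 and Bmp7. They were searched on both strands for GGCGCC, the core of the GC-rich BMP response elements to which Smad complexes bind, which reads the same on either strand. It occurred in 11.9% of 32817 promoters of the same length and in those of Id2, Id4, Bmpr1a and Bmpr2. The short Smad motif GTCT, with AGAC on the other strand, occurred in 88.0% of the promoters, and among the members at hand those of Id4 and Bmpr2 held none. The promoters of the Id genes at hand are printed 5′ to 3′ because Id1, Id2 and Id3 lay higher in cKO NSC-like cells than Id4 did relative to control, and capitals mark GGCGCC. The Id3 promoter, chr4:136143572-136143871 on the plus strand, held no GGCGCC, the Id2 promoter, chr12:25096043-25096342 on the minus strand, held 1, and the Id4 promoter, chr13:48260866-48261165 on the plus strand, held 1. A match is a run of letters and was not read as a site in use.
Id3: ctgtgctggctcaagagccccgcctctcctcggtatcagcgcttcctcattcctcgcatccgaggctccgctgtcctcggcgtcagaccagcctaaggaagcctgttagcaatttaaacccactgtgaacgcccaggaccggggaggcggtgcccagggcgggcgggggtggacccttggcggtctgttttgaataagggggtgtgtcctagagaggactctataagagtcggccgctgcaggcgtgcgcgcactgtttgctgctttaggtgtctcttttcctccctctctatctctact
Id2: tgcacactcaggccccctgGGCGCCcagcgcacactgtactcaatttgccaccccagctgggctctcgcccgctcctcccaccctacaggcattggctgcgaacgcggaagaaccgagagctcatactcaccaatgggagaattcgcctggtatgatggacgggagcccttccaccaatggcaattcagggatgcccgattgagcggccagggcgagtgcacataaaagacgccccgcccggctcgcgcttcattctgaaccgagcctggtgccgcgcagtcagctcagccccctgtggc
Id4: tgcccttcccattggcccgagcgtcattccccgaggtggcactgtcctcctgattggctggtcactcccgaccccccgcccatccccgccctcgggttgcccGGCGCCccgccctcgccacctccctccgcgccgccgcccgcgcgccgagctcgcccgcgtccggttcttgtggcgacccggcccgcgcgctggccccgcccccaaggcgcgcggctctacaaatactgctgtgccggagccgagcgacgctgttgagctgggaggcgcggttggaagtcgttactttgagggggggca

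The 7 libraries held 45758003 to 141353017 UMIs. Cells with 500 to 7000 genes and at most 10% mitochondrial counts were kept, 43346 in all and 1868 to 9502 per library, with library medians of 4959.5 to 8317.5 UMIs per kept cell. At most 1.48% of the barcodes of the smaller library were shared between any 2 libraries. Some libraries stood apart. cKO 2 and cKO 3 kept 49.8% and 47.2% of their barcodes, against 70.2% to 74.7% in the other libraries, and 1235 of the 1679 fibroblast-like cells came from control 2. Clusters were named from marker lists, and the suffix -like marks such names. 11 cell types were compared, namely 5340 NSC-like, 2505 astrocyte-like, 2773 ependymal-like, 2977 TAP-like (transit amplifying progenitors), 7717 neuroblast-like, 2337 neuron-like, 1558 OPC-like (oligodendrocyte precursors, with committed precursors in the same cluster), 5235 oligodendrocyte-like, 2767 endothelial-like, 1467 mural-like and 1092 microglia-like cells. The NSC-like cluster raised all 5 NSC markers with Thbs4 and Gfap in the lead, and also all 6 astrocyte markers, so the markers do not part it fully from astrocytes. Prdm16 itself was at 62.7 to 74.7 CPM (the UMIs of the gene scaled to an equal total in each library) in control and 46.1 to 55.4 CPM in cKO NSC-like cells, without overlap, and at 20.2 to 27.7 and 11.3 to 16.2 CPM in ependymal-like cells. In astrocyte-like cells its ranges overlapped, at 45.7 to 52.7 and 46.3 to 59.9 CPM. A 3′ assay still counts transcripts that have lost an upstream exon, so this level only partly checks the labels. Vcam1 was lowest in the DKO library in NSC-like (87.4 CPM), astrocyte-like (177 CPM), ependymal-like (12.9 CPM) and endothelial-like cells (30.7 CPM). Endothelial cells arise from another lineage, so this level too only partly checks the labels.

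Levels are CPM over the summed UMIs of all cells of a type in a library, and are compared between cell types within a gene, never between genes. Differences between cell types are described without a test. Each Id gene had its own distribution. Id1 was an endothelial transcript first of all, at 1502 ± 154 CPM (SD, n = 3 control libraries) in endothelial-like cells, 511 ± 23.8 in mural-like, 169 ± 13.9 in astrocyte-like, 106 ± 12.6 in NSC-like and 59.8 ± 2.47 in TAP-like cells. This order held in all 7 libraries for each of these neighbours, and the control ranges were separate. The place of mural-like cells rests on the smaller mural-like cluster, described below, 339 cells with 1032 CPM of Id1 in control. The larger, 1128 cells, had 74.1 CPM, under the astrocyte-like and NSC-like levels. The endothelial-like cells were 6.47% of the kept cells of a library and held 48.5% of its Id1 UMIs (medians over libraries). Neuroblast-like and neuron-like cells had the lowest Id1, at 6.31 ± 2.60 and 6.47 ± 0.454 CPM, and their ranges overlapped.

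Id3, which is induced by the same signals, was at a like level in endothelial-like (1145 ± 198 CPM), astrocyte-like (1067 ± 232) and mural-like cells (1020 ± 26.8), whose ranges were not separate. NSC-like cells followed at 560.2 ± 92.7 CPM. Below them Id3 dropped away to 103 ± 34.6 CPM in ependymal-like, 13.9 ± 3.04 in TAP-like and 13.1 ± 3.204 in neuroblast-like cells. From NSC-like to TAP-like cells the control mean of Id3 was therefore far lower, while that of Id1 stood at 106 and 59.8 CPM. Over the 33 points given by 11 types and 3 control libraries, log2(CPM + 1) of Id1 and Id3 correlated at r = 0.87 (Pearson), a description in which points share libraries and depth.

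Id2 and Id4 were highest in glia rather than in vessels. Id2 was highest in astrocyte-like cells at 924 ± 48.8 CPM and was next highest in microglia-like (439 ± 39.7) and NSC-like cells (367 ± 36.6), with 122 ± 7.71 in ependymal-like cells. Endothelial-like cells had 82.5 ± 19.5 CPM of Id2, and oligodendrocyte-like cells the lowest level, 11.7 ± 1.25. Id4 did not differ beyond its spread between astrocyte-like (1159 ± 121 CPM), NSC-like (1122 ± 174) and ependymal-like cells (1041 ± 110.0). Neuron-like cells had 466 ± 70.8 CPM of Id4, neuroblast-like cells 272 ± 25.3 and TAP-like cells 162 ± 23.9, an order that all 7 libraries kept. Droplet libraries carry free RNA, and red blood cells should lack these genes. In the erythroid-like cells, Id1 was at 4.14 to 196 CPM, Id2 at 34.2 to 232, Id3 at 34.2 to 526 and Id4 at 104 to 374 CPM over the 7 libraries. These cells number 6 to 67 per library, and the highest Id1, Id2, Id3 and Id4 values all came from the 16 of cKO 1. The control means above the range were those of Id1 in endothelial-like and mural-like cells, of Id2 in astrocyte-like, microglia-like and NSC-like cells, of Id3 in endothelial-like, astrocyte-like, mural-like and NSC-like cells, and of Id4 in astrocyte-like, NSC-like, ependymal-like and neuron-like cells. Every other control mean of an Id gene, those of Id1 in astrocyte-like and NSC-like cells among them, lay inside or below it, and the range alone does not part these from background. As shares of cells with an Id1 UMI at equal depth (medians over libraries), astrocyte-like cells had 28.6%, NSC-like 17.6%, TAP-like 10.6% and erythroid-like cells 5.56%, and without thinning 66.8%, 40.9%, 51.4% and 9.52%.

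**Figure D1:**
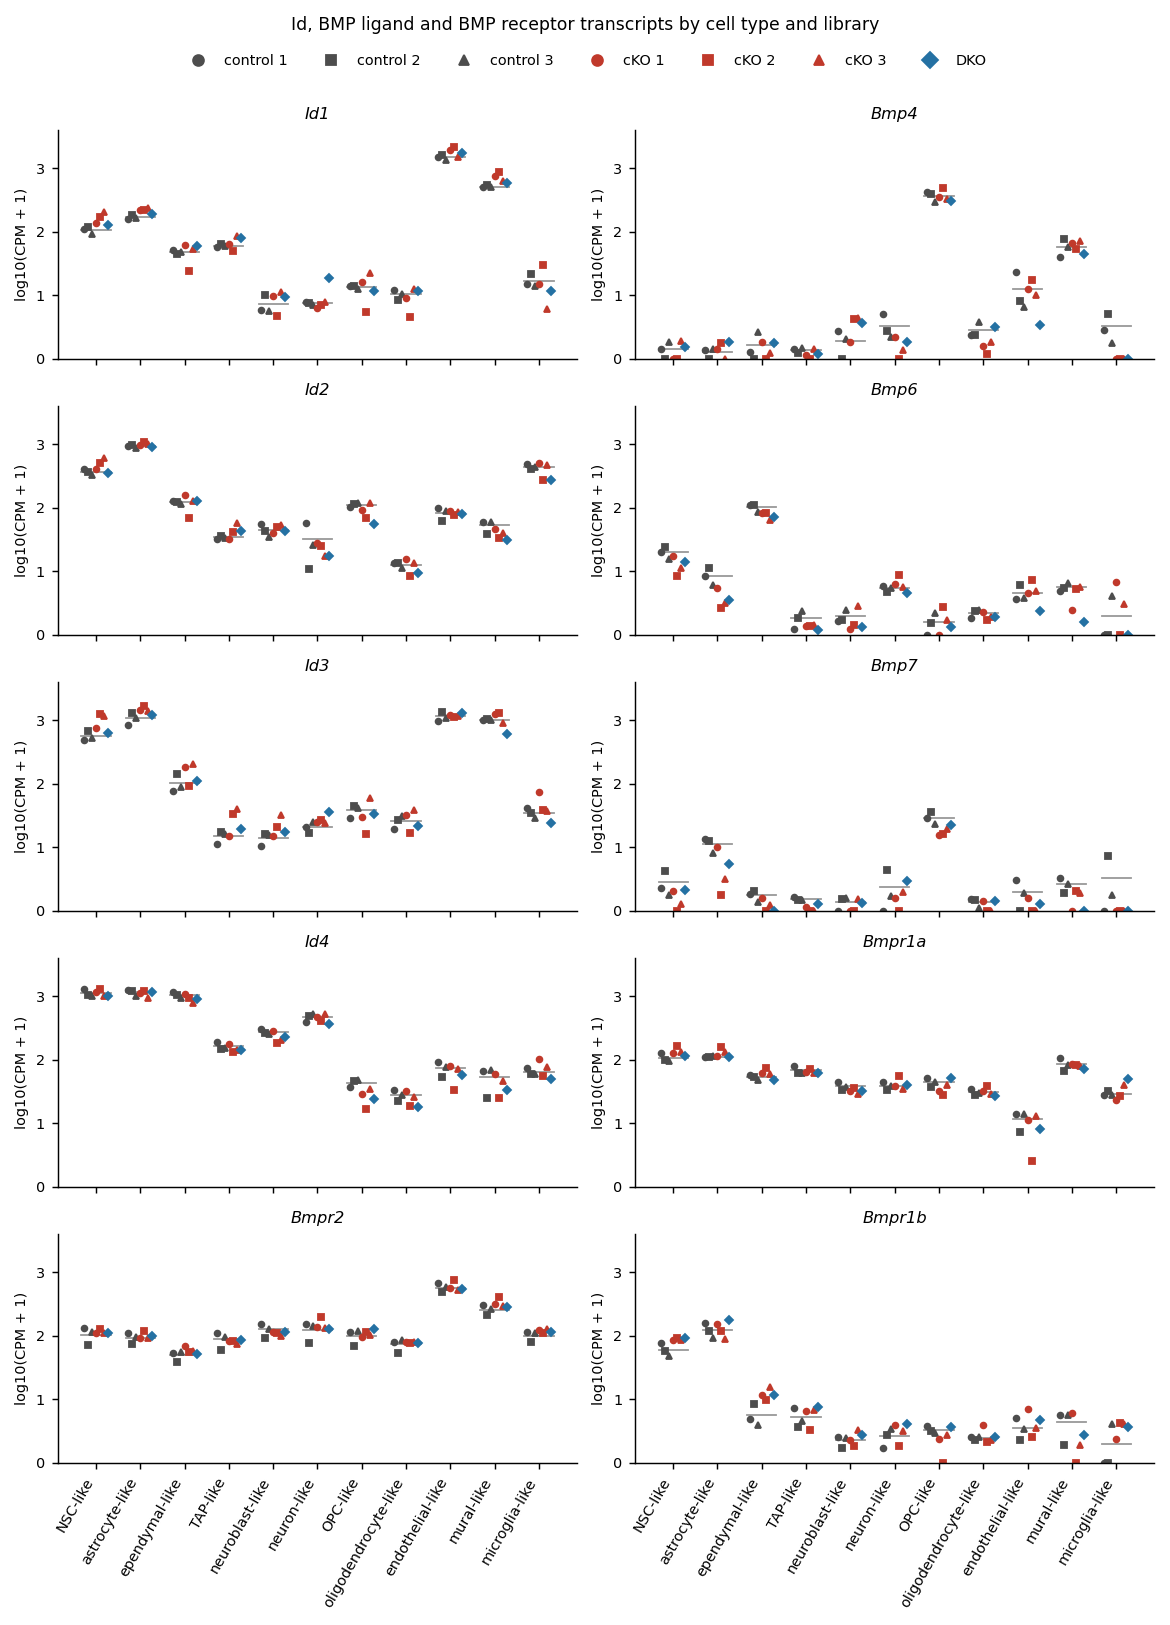
The vertical axis gives log10(CPM + 1) of each of the 10 genes, the horizontal axis 11 cell types, each point a library and each grey line the control mean. Id1 peaks in endothelial-like cells (control mean 1502 CPM), Bmp4 in OPC-like cells (369 CPM) and Bmp6 in ependymal-like cells (101 CPM), while Id4 shares its highest level between NSC-like, astrocyte-like and ependymal-like cells.

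Each ligand peaked in 1 of the types compared. Bmp4 was at 418, 398 and 291 CPM in the control libraries in OPC-like cells, a mean of 369 ± 68.1, followed by mural-like cells at 57.2 ± 18.8 and endothelial-like cells at 11.7 ± 9.41. This cluster held 3.59% of the kept cells and 82.5% of the Bmp4 UMIs (medians over libraries). It takes in committed precursors, whose 4 markers summed to 3026 to 4409 CPM in control against 1702 to 1967 CPM for the 4 OPC markers, and the 5 oligodendrocyte markers, at 2575 to 3739 CPM, exceed the OPC markers as well. In OPC-like cells without them, Bmp4 was at 54.3 CPM (control mean) in a finer clustering and at 52.1 CPM when cells were typed by marker score. NSC-like, astrocyte-like, TAP-like and ependymal-like cells all averaged under 1 CPM of Bmp4. Bmp6 was at 108, 109.9 and 84.1 CPM in control ependymal-like cells, 101 ± 14.4 on average, ahead of NSC-like (19.1 ± 4.21) and astrocyte-like cells (7.50 ± 2.56). All 7 libraries kept ependymal-like above NSC-like and NSC-like above astrocyte-like cells. Erythroid-like cells had 0 to 21.5 CPM of Bmp6 over the 7 libraries, on 5 UMIs, a range that holds the NSC-like and astrocyte-like means. For Bmp4 they had 0 to 10.75 CPM, on 1 UMI, which the OPC-like, mural-like and endothelial-like means alone exceed, and for Bmp7 no UMI. Bmp7 was highest in OPC-like cells at 28.4 ± 6.28 CPM and in astrocyte-like cells at 10.4 ± 2.84. Outside the types compared, the fibroblast-like cells held Bmp7 at 70.6, 39.3 and 104 CPM in the control libraries. They held Bmp6 at 57.2, 6.47 and 98.5 CPM in control, 80.6, 170.8 and 202.5 CPM in cKO and 147.9 CPM in the DKO library.

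Each receptor had a distribution of its own. Bmpr1a was at 112 ± 3.49 CPM in astrocyte-like and 108 ± 17.2 in NSC-like cells, which overlapped, and was lowest in endothelial-like cells at 10.9 ± 3.86. Erythroid-like cells had 13.9 to 43.0 CPM of Bmpr1a over the 7 libraries. The endothelial-like, microglia-like (28.3 ± 2.46 CPM), oligodendrocyte-like, neuroblast-like and neuron-like means were not above that range, and the endothelial-like mean lay below all of it. Given as shares of cells with a UMI after thinning to equal depth (medians over libraries), Bmpr1a was in 20.4% of NSC-like, 4.76% of erythroid-like and 1.10% of endothelial-like cells, against 55.2%, 11.6% and 4.20% unthinned. Bmpr1b, the other type I receptor, was highest in glia, at 122.5 ± 33.1 CPM in astrocyte-like and 59.7 ± 15.1 in NSC-like cells and below 5 CPM in every other type. Erythroid-like cells had 10.4 to 68.3 CPM of Bmpr1b, a range that holds the NSC-like mean and that the astrocyte-like mean alone exceeds. It rests on 32 UMIs, and its highest value came from the 6 such cells of cKO 2. The types averaging below 5 CPM lay under the whole range, so it is not a level of free RNA common to all types. At equal depth, Bmpr1b was in 15.0% of NSC-like and 1.85% of erythroid-like cells (medians over libraries), against 39.3% and 9.52% unthinned. Astrocyte-like cells were 5.41% of the kept cells of a library and held 35.3% of its Bmpr1b UMIs, and NSC-like cells held 45.7% (medians over libraries). Bmpr2 was highest in endothelial-like cells at 574 ± 93.7 CPM, with mural-like cells at 257 ± 45.1 and all others between 48.1 and 125 CPM, inside the erythroid-like range of 12.3 to 171 CPM. Endothelial-like cells thus combined the highest Id1 and Bmpr2 with the lowest Bmpr1a, and held Acvrl1, the type I receptor of vessels, at 368 ± 65.4 CPM and its co-receptor Eng at 763 ± 122.

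Mural cells wrap vessels as pericytes and smooth muscle, and their cluster pair divided sharply for these genes. The smaller cluster, 339 cells with a median of 13879 UMIs, raised all 5 pericyte, all 4 smooth muscle and all 6 endothelial markers. It had 1027, 1038 and 1031 CPM of Id1 in the control libraries. The larger, 1128 cells with pericyte and smooth muscle but not endothelial markers raised, had 78.7, 53.5 and 90.1 CPM. Id3 did not divide in this way, at 1102 ± 87.6 CPM in the smaller and 949 ± 37.0 in the larger cluster. Bmpr2 went with Id1 (418 ± 97.5 against 126 ± 13.8 CPM), and Bmpr1a went the other way (49.7 ± 3.68 against 113 ± 29.8 CPM). Whether barcodes of the smaller cluster hold more than 1 cell was not tested beyond the doublet call.

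**Figure D2:**
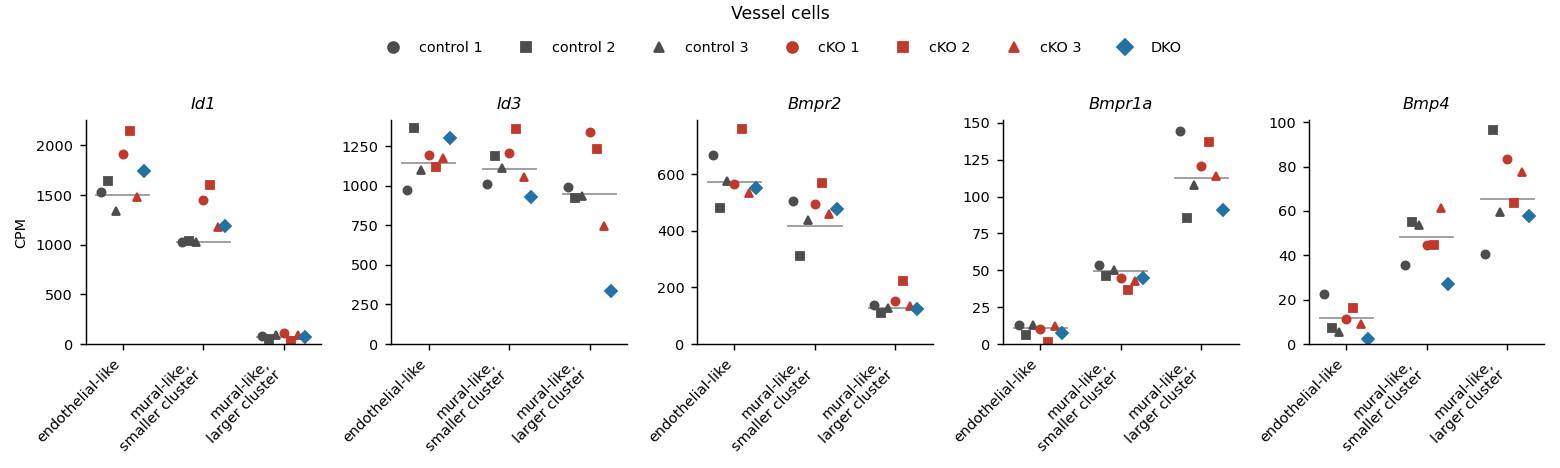
The vertical axes give CPM of Id1, Id3, Bmpr2, Bmpr1a and Bmp4 in endothelial-like cells and in the smaller and larger mural-like clusters, each point a library and each grey line the control mean. Id1 and Bmpr2 are lowest in the larger mural-like cluster (control means 74.1 and 126 CPM), Bmpr1a is highest there, and the control means of Id3 lie close together (1145, 1102 and 949 CPM).

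Finer clustering split the OPC-like cells, and with them the ligands. Bmp4 was at 63.2, 51.4 and 48.3 CPM in the 905 control and knockout cells that kept the name OPC-like, against 370.3, 501 and 247 CPM in 1460 committed-precursor-like cells, a cluster that also took in cells from outside the OPC-like cluster, and 0.662, 1.44 and 3.04 CPM in oligodendrocyte-like cells (control libraries in order). Bmp4 was thus highest at the middle stage of the lineage in all 7 libraries. Bmp7 had the opposite place, with 69.4 ± 14.6 CPM in OPC-like, 2.03 ± 1.57 in committed-precursor-like and 0.167 ± 0.0375 in oligodendrocyte-like cells. Id2 stepped down along the same stages, from 255 ± 17.4 to 48.3 ± 9.28 to 5.52 ± 1.501 CPM, and Bmpr1a from 68.6 ± 15.0 to 35.2 ± 6.34 to 28.9 ± 3.04 CPM.

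**Figure D3:**
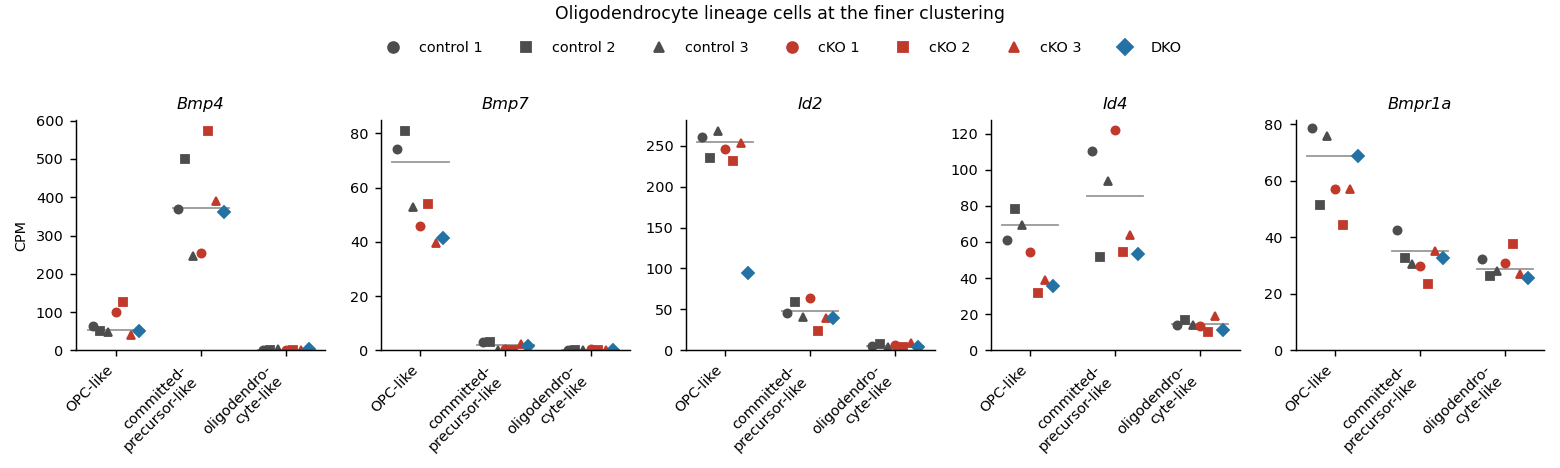
The vertical axes give CPM of Bmp4, Bmp7, Id2, Id4 and Bmpr1a at 3 stages of the oligodendrocyte lineage, each point a library and each grey line the control mean. Bmp4 peaks in committed-precursor-like cells (control mean 373 CPM) and Bmp7 in OPC-like cells (69.4 CPM). The DKO library has the lowest Id2 in OPC-like cells (94.8 CPM).

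The effect of Prdm16 loss was tested in each cell type with edgeR on UMIs summed per library, 3 cKO against 3 control libraries, with p-values adjusted over all genes tested in the type and a threshold of 0.05. Of 110 member and type pairs, 90 passed the filter on low counts. None of the 90 passed the threshold (lowest adjusted p = 0.0895), and 20 had an unadjusted p under 0.05, of which 13 were higher and 7 lower in cKO, against 6.19% of all gene and type pairs. In 19 of the 110 pairs the cKO values did not overlap the control values, 11 all higher and 8 all lower. The share over all genes was not computed, so a lack of overlap is a description. The share of all tested genes past the threshold was 0.186% in NSC-like (27 of 14508), 1.23% in astrocyte-like, 0.158% in ependymal-like, 0.0294% in neuroblast-like, 0.00759% in neuron-like and 0.0089% in mural-like cells, and 0% in TAP-like, OPC-like, oligodendrocyte-like, endothelial-like and microglia-like cells. The members share libraries and were chosen with earlier results of these data known, so the shares that follow are descriptions and not independent support. In NSC-like cells, 6 of the 9 members tested had an unadjusted p under 0.05, against 13.8% of all genes. The same held for 4 of 9 members in astrocyte-like cells (10.0% of all genes) and 3 of 8 in ependymal-like cells (8.44%). In the other types it was 1 of 9 in neuroblast-like (8.79% of all genes), 2 of 8 in OPC-like (4.48%), 1 of 9 in oligodendrocyte-like (2.02%), 2 of 7 in mural-like (3.82%) and 1 of 6 in microglia-like cells (3.14%), and none in TAP-like (6.53%), neuron-like (2.63%) or endothelial-like cells (2.15%). The median log2 fold change of the tested members was 0.49 in NSC-like, 0.12 in astrocyte-like and 0.18 in ependymal-like cells, where the medians over all genes tested were -0.01, -0.01 and 0.01.

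In NSC-like cells, Id1, Id2 and Id3 and the type I receptors were higher in cKO, and the ligand Bmp6 lower, none past the threshold. Id3 was at 497, 667 and 517 CPM in control and 759, 1264 and 1155 CPM in cKO libraries. Every cKO value lay above every control value, and the log2 fold change was 1.02 ± 0.24 (SE, unadjusted p = 0.00133, adjusted p = 0.0929). Id1 was at 111, 116 and 92.02 CPM in control and 138, 173 and 205 CPM in cKO. Its groups did not overlap either, and the log2 fold change was 0.80 ± 0.19 (unadjusted p = 0.0011, adjusted p = 0.0895). Id2 was at 404.1, 365 and 331 CPM in control and 404.5, 513 and 607 CPM in cKO. The lowest cKO value sat at the highest control value, and the log2 fold change was 0.58 ± 0.20 (unadjusted p = 0.0156, adjusted p = 0.231).

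Id4 gave no such difference in these cells, with 1323, 1032 and 1012 CPM in control and 1171, 1299 and 1006 CPM in cKO. The estimate was 0.14 on the log2 scale with an approximate 95% interval of -0.24 to 0.52. A rise like the estimate for Id3, 1.02, lies outside that interval. Among the receptors, Bmpr1b was at 76.2, 56.5 and 46.5 CPM in control and 84.2, 90.0 and 83.4 CPM in cKO, without overlap (log2 fold change 0.63 ± 0.17, unadjusted p = 0.00263, adjusted p = 0.111). Bmpr1a, at 127, 99.2 and 96.1 CPM in control and 126, 165 and 133 CPM in cKO, overlapped by a single library of each group (0.49 ± 0.16, unadjusted p = 0.011, adjusted p = 0.198). Bmpr2 overlapped fully (0.25 ± 0.21, adjusted p = 0.648). Bmp6 was at 19.1, 23.2 and 14.8 CPM in control and 16.4, 7.47 and 10.4 CPM in cKO, a log2 fold change of -0.59 ± 0.26 (unadjusted p = 0.0457, adjusted p = 0.352). Of these Bmp6 values, that of control 2 alone lay above the erythroid-like range of 0 to 21.5 CPM.

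Other values moved with these. The summed level of the 6 astrocyte markers in NSC-like cells was 1398 to 1435 CPM in control and 1518 to 2163 CPM in cKO, and that of the 6 TAP markers was 39.1 to 59.6 CPM in control and 11.6 to 34.5 CPM in cKO. The 6 ependymal markers were at 98.1 to 133 and 146 to 316 CPM. Of the 18 marker lists, 4 others also had separate ranges, all lower in cKO, namely pericyte (111 to 117 against 72.4 to 84.2 CPM), committed precursor (147 to 176 against 110 to 140 CPM), fibroblast (25.4 to 38.3 against 13.4 to 21.97 CPM) and microglia markers (49.99 to 64.4 against 38.7 to 45.3 CPM). All markers of these 7 lists were detected, and their part in the Id values was not tested. The 6 endothelial markers overlapped, at 30.6 to 40.8 CPM in control and 34.7 to 50.7 CPM in cKO, against at least 15850 CPM in endothelial-like cells of any library. Calls in NSC-like cells depended on cKO library 1 and on the test. cKO 1 had the lowest Id1, Id2 and Id3 of the cKO libraries, though its Id1, Id3 and Bmpr1b still lay above every control. The higher values were those of cKO 2 and cKO 3, the libraries that kept 49.8% and 47.2% of their barcodes, against 74.7% in cKO 1, and the part of this in the Id values was not tested. Without it, 9 member and type pairs passed, 6 of them in NSC-like cells, where 11.4% of all genes then passed, among them Id1 and Id3 (edgeR adjusted p = 0.00121 and 0.000971). Leaving out any other library called none. With all libraries kept, Id1, Id3 and Bmpr1b in NSC-like cells were called by DESeq2 (3.76% of all genes called), by edgeR without the filter on low counts (2.57%) and by edgeR with the replicate number as a block (4.11%). When each cell was given to the type of its highest marker score, the log2 fold change of Id2, 0.38 without cKO 3, was 0.19 in place of 0.58, and that of Bmpr1b 0.37 in place of 0.63.

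In astrocyte-like cells, the Id1 and Id3 estimates were again above 0 and those of Bmp6 and Bmp7 below, none past the threshold. Id1 was at 160, 185 and 162 CPM in control and 218, 222 and 236 CPM in cKO, and Id3 at 834, 1297 and 1071 against 1423, 1661 and 1406 CPM. Neither pair of groups overlapped, and the log2 fold changes were 0.42 ± 0.17 (unadjusted p = 0.0211, adjusted p = 0.342) and 0.48 ± 0.20 (unadjusted p = 0.0298, adjusted p = 0.405). Id2 was also highest in the cKO libraries, by little (0.15 ± 0.18, adjusted p = 0.848). Bmp6 was at 7.30, 10.2 and 5.05 CPM in control and 4.55, 1.62 and 2.13 CPM in cKO, all lower (-1.31 ± 0.47, unadjusted p = 0.0123, adjusted p = 0.265), and -0.56 with cell types by marker score. Bmp7 was at 12.7, 11.4 and 7.24 CPM in control and 9.10, 0.809 and 2.13 CPM in cKO (-1.22 ± 0.55, unadjusted p = 0.0471, adjusted p = 0.488). Without cKO 1, whose Bmp7 lay inside the control range, the estimate for Bmp7 was -2.51 (edgeR adjusted p = 0.00342), and in a fit blocked on replicate number it was -1.32 (edgeR adjusted p = 0.0411), both past the threshold, as were 4.53% and 4.52% of all genes in these fits. Without cKO 3 it was -0.79. The astrocyte-like cells held 96 UMIs of Bmp6 and 140 of Bmp7 over all libraries, which limits both estimates. All Bmp6 values of astrocyte-like cells lay inside the erythroid-like range of 0 to 21.5 CPM. Bmpr1b, at its highest in this type, gave no difference past its error (-0.01 with an interval of -0.43 to 0.41). The summed level of the 6 astrocyte markers was again higher in cKO, 4291 to 4590 CPM in control against 5128 to 5338 CPM in cKO. TAP markers (19.2 to 34.5 against 8.90 to 17.4 CPM) and fibroblast markers (25.7 to 38.6 against 5.48 to 17.8 CPM, with 1 of the 5 at 0) were lower without overlap, and the part of these lists in the values was not tested.

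**Figure D4:**
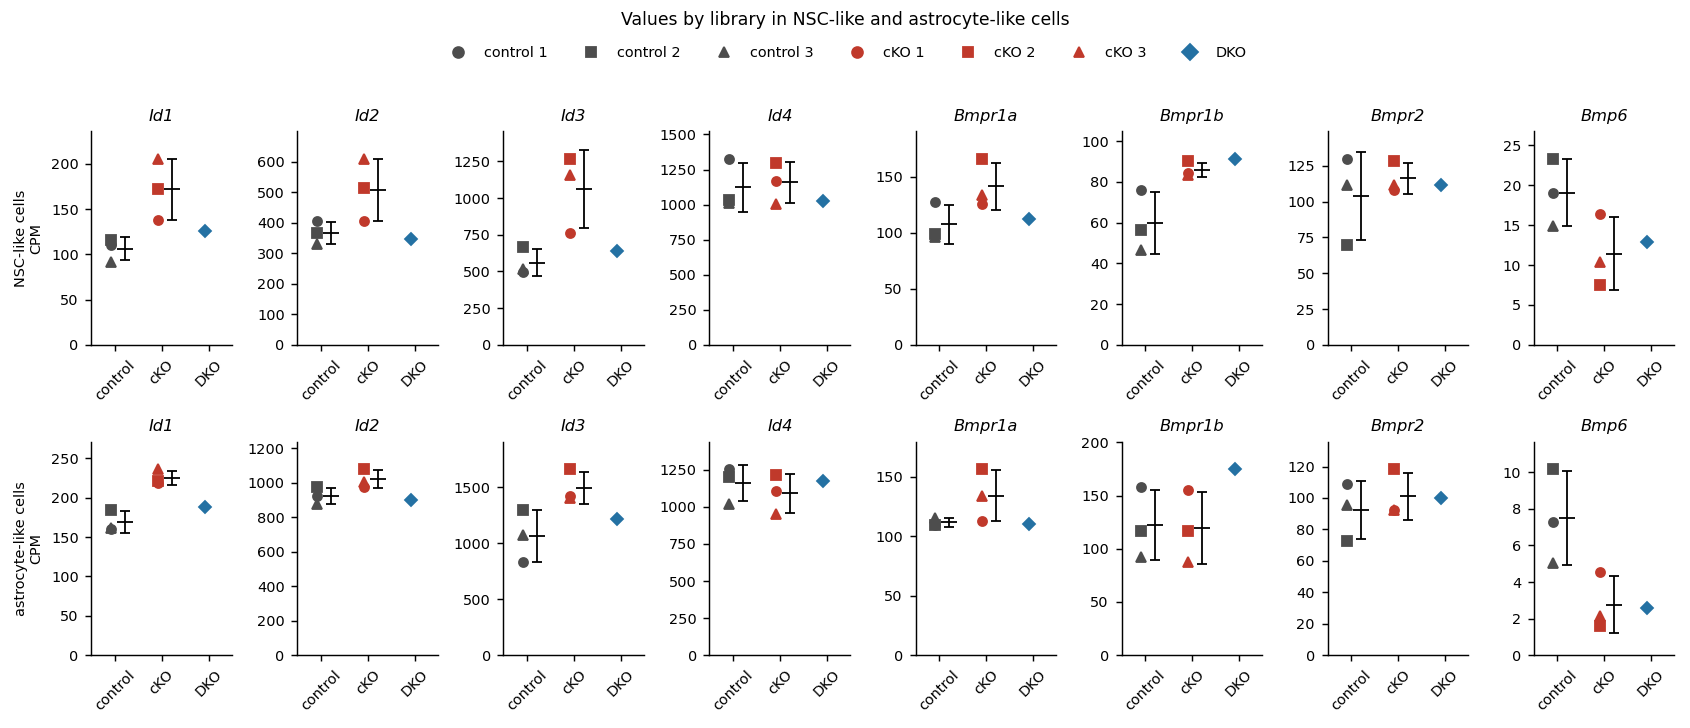
The vertical axes give CPM from 0 in NSC-like (top) and astrocyte-like cells (bottom), each coloured point a library and each black bar the mean ± SD of 3 libraries. All 3 cKO values lie above the controls for Id1, Id2 and Id3 in both types and for Bmpr1b in NSC-like cells, and cKO 1 is the lowest cKO library for Id1, Id2 and Id3 in NSC-like cells. The DKO library lies above all controls for Bmpr1b in both types.

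In ependymal-like cells, the ciliated lining of the ventricle, the type I receptors and Bmpr2 were higher in every cKO library and the ligand Bmp6 lower, none past the threshold. Bmp6 was at 108, 109.9 and 84.1 CPM in control and 80.8, 82.6 and 62.6 CPM in cKO, without overlap (-0.35 ± 0.15, unadjusted p = 0.0376, adjusted p = 0.532), and the estimate was -0.65 in cells with at most 5% mitochondrial counts. Bmpr1b, scarce in this type, was at 3.88, 7.33 and 2.98 CPM in control and 10.7, 8.92 and 14.7 CPM in cKO, a log2 fold change of 1.64 ± 0.36 (unadjusted p = 0.000572, adjusted p = 0.109) on 183 UMIs over all libraries, none of its values above the erythroid-like range. It passed the threshold without the filter, with the replicate block, without cKO 1 and with cell types by marker score (edgeR adjusted p from 0.000985 to 0.0453), where 1.76%, 1.74%, 2.62% and 0.282% of all genes in this type passed, in that order. Bmpr1a lay at 47.4 to 57.7 CPM in control and 58.5 to 72.5 CPM in cKO (0.34 ± 0.15, unadjusted p = 0.0352, adjusted p = 0.522). Bmpr2 lay at 37.7 to 53.7 CPM in control and 54.7 to 69.3 CPM in cKO (0.32 ± 0.16, edgeR unadjusted p = 0.0701, adjusted p = 0.659). Id1, Id2 and Id4 overlapped between the groups, with log2 fold changes of 0.04, 0.02 and -0.10, and Id3 had 0.76 ± 0.34 (unadjusted p = 0.059, adjusted p = 0.622). Markers of other cells differed in these cells without overlap. Smooth muscle markers were at 393 to 571 CPM in control and 645 to 907 CPM in cKO, oligodendrocyte markers at 247 to 447 and 88.0 to 224 CPM, and fibroblast markers, 1 of the 5 at 0, at 37.2 to 41.4 and 15.2 to 30.9 CPM. Their part in the values of ependymal-like cells was not tested.

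Along the neurogenic lineage Id3 stayed well below its NSC-like level in both genotypes. In TAP-like cells, Id3 was at 10.4, 16.2 and 15.1 CPM in control and 13.9, 32.8 and 39.4 CPM in cKO (1.07 ± 0.46, unadjusted p = 0.0606, adjusted p = 0.786), and cKO 1 lay within the control range. The 5 NSC markers summed in TAP-like cells were at 366 to 449 CPM in control and 523 to 923 CPM in cKO, without overlap. Endothelial markers (24.55 to 41.5 against 13.2 to 24.46 CPM) and committed precursor markers (37.6 to 47.7 against 23.7 to 33.8 CPM) were lower there without overlap, and the part of these lists in the Id3 values was not tested. Id3 in TAP-like cells passed the threshold in edgeR fits without the filter, with the replicate block and without cKO 1, where 0.824%, 0.567% and 1.23% of all genes passed. In neuroblast-like cells it was at 9.44, 15.1 and 14.9 against 14.02, 20.2 and 31 CPM (0.79 ± 0.31, unadjusted p = 0.0295, adjusted p = 0.519), and the estimate was 0.41 with cell types by marker score and 0.39 without cKO 3. TAP markers in these cells were at 42.9 to 54.3 CPM in control and 19.4 to 38.4 CPM in cKO, without overlap, and their part in the Id3 value was not tested. Id4 had log2 fold changes of -0.04 ± 0.14 in TAP-like and -0.21 ± 0.19 in neuroblast-like cells. No member had an unadjusted p under 0.05 in TAP-like or neuron-like cells.

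In OPC-like cells, Bmp7 was at 28.1, 34.8 and 22.2 CPM in control and 14.5, 15.2 and 18.6 CPM in cKO, all lower (-0.66 ± 0.23, unadjusted p = 0.0106, adjusted p = 0.956). Id4 was likewise lower in all 3 cKO libraries, at 35.7, 45.1 and 46.9 against 27.7, 16.1 and 34.1 CPM (-0.55 ± 0.22, unadjusted p = 0.0246, adjusted p = 0.956). Pericyte markers (12.51 to 61.3 against 4.46 to 11.4 CPM) and microglia markers (34.5 to 45.5 against 18.7 to 28.5 CPM) were also lower without overlap in these cells, and their part in both values was not tested. In the finer clustering, the OPC-like cells held Bmp7 at 53.0 to 80.9 CPM in control and 39.8 to 53.9 CPM in cKO, which overlapped. Bmp4 in OPC-like cells gave no difference past its error (0.21 ± 0.21, interval -0.20 to 0.62). In oligodendrocyte-like cells, Bmp4 was at 1.37, 1.39 and 2.86 CPM in control and 0.608, 0.185 and 0.860 CPM in cKO. All of these values lay inside the erythroid-like range of 0 to 10.75 CPM. The estimate in oligodendrocyte-like cells was -1.61 ± 0.53 (unadjusted p = 0.0108, adjusted p = 0.9999), on 161 UMIs over all libraries, and -0.95 with cell types by marker score. Neuroblast markers (116 to 134 against 36.8 to 94.6 CPM) and microglia markers (29.7 to 41.8 against 18.3 to 21.2 CPM) were lower without overlap there, and their part was not tested.

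Vessel cells and microglia, which arise from other lineages, gave values of the same size as some of those above. Id1 in mural-like cells was at 497, 538 and 497 CPM in control and 756, 875 and 629 CPM in cKO, without overlap (0.63 ± 0.19, unadjusted p = 0.00408, adjusted p = 0.9997). The difference lay in the smaller mural-like cluster (1409 ± 216 CPM in cKO against 1032 ± 5.84), while the larger had 74.3 ± 41.1 against 74.1 ± 18.8 CPM. Endothelial markers summed in mural-like cells were 5621 to 6188 CPM in control and 6384 to 7598 CPM in cKO, also without overlap. Smooth muscle markers (4489 to 5017 against 3049 to 4260 CPM), neuroblast markers (208 to 332 against 37.0 to 135 CPM), OPC markers (355 to 404 against 302 to 336 CPM) and TAP markers (33.5 to 99.6 against 14.4 to 33.4 CPM) were lower without overlap, and the part of these lists in the Id1 value was not tested. Bmpr2 in mural-like cells gave 0.47 ± 0.19 (unadjusted p = 0.0258, adjusted p = 0.9997). In endothelial-like cells, Id1 was at 1528, 1642 and 1337 CPM in control and 1909, 2150 and 1486 CPM in cKO (0.41 ± 0.21, unadjusted p = 0.0731, adjusted p = 0.9996), and Id3 at 1145 ± 198 against 1160 ± 40.5 CPM (0.12, interval -0.27 to 0.52). Id3 in microglia-like cells gave 0.65 ± 0.29 (unadjusted p = 0.0414, adjusted p = 0.999) on 211 UMIs, and 0.25 without cKO 1. OPC markers in these cells were at 7.49 to 264 CPM in control and 0 to 5.20 CPM in cKO, without overlap. Their part in the Id3 value was not tested.

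**Figure D5:**
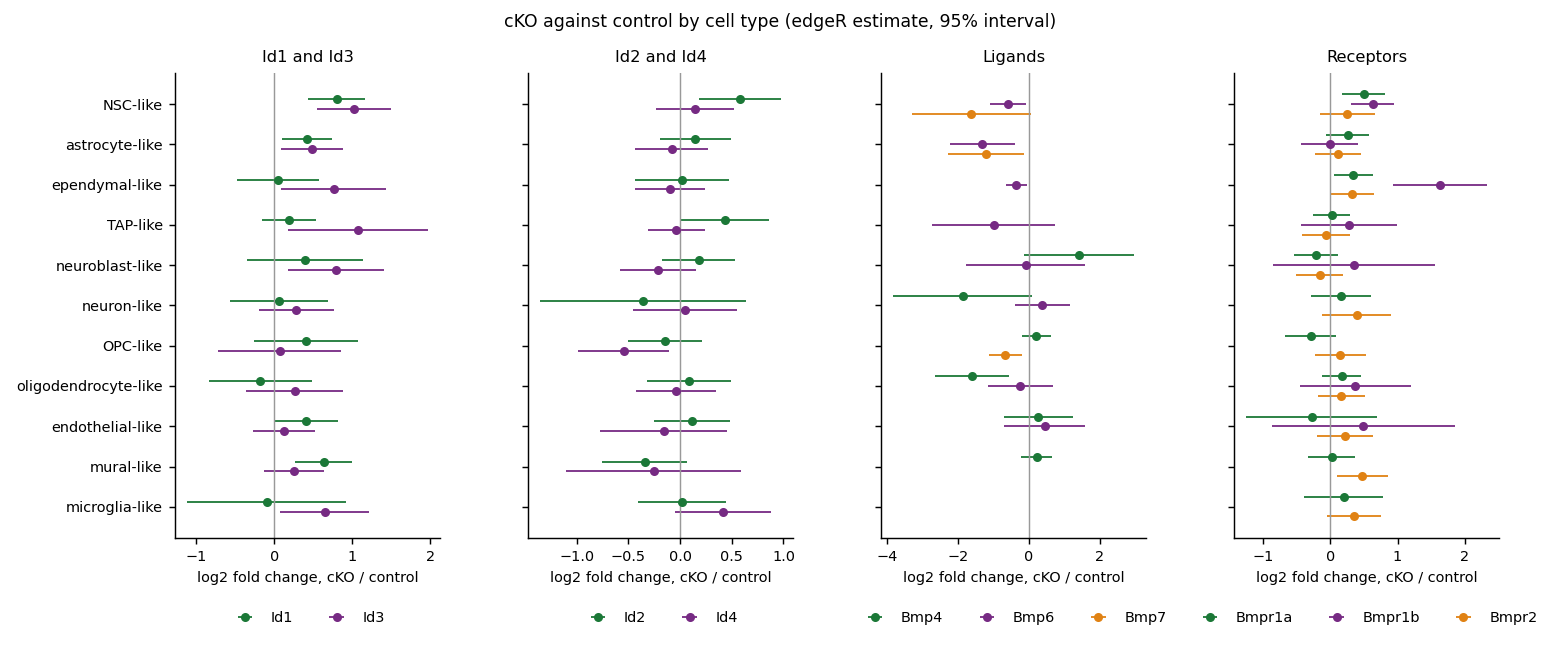
The horizontal axes give the edgeR log2 fold change of cKO against control for the members that passed the filter in each of 11 cell types. Each point is an estimate and each bar its approximate 95% interval. The bars use a normal quantile and are narrower than the F test implies, so a bar without 0 is not a test result. Id1 and Id3 lie to the right of 0 in NSC-like and astrocyte-like cells, Bmp6 to the left in NSC-like, astrocyte-like and ependymal-like cells, and no estimate passed the adjusted threshold.

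Whether the difference in NSC-like cells was peculiar to them was tested by an interaction between genotype and cell type within libraries, against astrocyte-like, TAP-like and endothelial-like cells. The share of all genes past the threshold was 1.37%, 0.379% and 0.226% in these comparisons, and none of the 28 member tests passed (lowest adjusted p = 0.101), while 9 had an unadjusted p under 0.05. These were 5 of 9 against astrocyte-like cells (1792 of 13826 genes), 3 of 9 against TAP-like (11.6% of all genes) and 1 of 10 against endothelial-like cells (8.23%). All 9 were larger in NSC-like cells. The NSC-like log2 difference of Id3 exceeded the endothelial-like by 0.87 ± 0.19 (unadjusted p = 0.000472, adjusted p = 0.101) and the astrocyte-like by 0.49 ± 0.20 (unadjusted p = 0.037, adjusted p = 0.343). That of Id1 exceeded the TAP-like by 0.55 ± 0.15 (unadjusted p = 0.0018, adjusted p = 0.134), that of Bmpr1a exceeded the TAP-like by 0.42 ± 0.11 (unadjusted p = 0.002, adjusted p = 0.141), and that of Bmpr1b exceeded the astrocyte-like by 0.66 ± 0.21 (unadjusted p = 0.00942, adjusted p = 0.184). Id3 in NSC-like and TAP-like cells differed by -0.06 ± 0.22.

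The DKO library has no replicate, so its values are given without a test. In NSC-like cells it held 126 CPM of Id1, 347 of Id2, 639 of Id3 and 1023 of Id4. Id2, Id3 and Id4 lay inside the control range, and Id1 was above the highest control (116 CPM) and below the lowest cKO value (138 CPM). Over the 10 members, the DKO value lay inside the control range for 7, above it for 2 and below it for 1, Bmp6 at 12.9 CPM. Of the 7, Id4, Bmp4 and Bmpr2 lay inside the cKO range as well. In astrocyte-like cells the DKO value lay inside the control range for 5, above for 3 (Id1, Bmp4 and Bmpr1b) and below for 2 (Bmp6 and Bmp7). The share of all genes inside the control range was not computed, so these counts have no measure beside them. Bmpr1b in NSC-like cells, at 91.0 CPM, was above all other libraries, and in astrocyte-like cells it was again the highest, at 174.5 CPM. Bmp6 in ependymal-like cells was at 70.1 CPM in the DKO library, inside the cKO range. The DKO library also had the lowest Id3 in mural-like cells (607 CPM against 900.0 to 1298 in the other libraries).

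The rest of the pathway was described by 49 further genes in lists of ligands, receptors, antagonists, Smads, targets and Id partners. Of 351 gene and type pairs tested, 1 passed the threshold, and 52 had an unadjusted p under 0.05, 29 higher and 23 lower in cKO. Over all genes, 206 of 140364 pairs passed and 6.19% had such a p. The call was Nbl1, a secreted BMP antagonist, which rose in cKO ependymal-like cells from 6.94, 19.9 and 8.43 CPM to 42.1, 71.9 and 72.2 CPM (2.76 ± 0.37, adjusted p = 0.0427). No pathway gene was called when any control or cKO library other than cKO 1 was left out. Nbl1 was also higher without overlap in NSC-like (27.4 ± 7.82 against 182 ± 95.3 CPM, adjusted p = 0.0928) and astrocyte-like cells (21.5 ± 8.32 against 89.6 ± 44.4 CPM, adjusted p = 0.147), and it was highest in mural-like cells (519 ± 131 CPM in control), where it gave -0.31 ± 0.19. The summed smooth muscle markers of ependymal-like cells given above were higher in cKO as well, and their part in the Nbl1 value was not tested. Of the antagonists tested in ependymal-like cells, 1 of 11 was called higher and 4 had an unadjusted p under 0.05, all higher, against 8.44% of all genes, and the median log2 fold change was 0.42. In astrocyte-like cells none of 9 was called and 4 had such a p, all higher, against 10.0% of all genes, with a median of 0.51. In NSC-like cells 2 of 11 had such a p, a share close to the 13.8% of all genes, with a median of 0.30.

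Among other ligands, Gdf10, a BMP3-like ligand, was at 22.3, 46.3 and 21.95 CPM in control and 63.7, 201 and 227 CPM in cKO astrocyte-like cells (2.46 ± 0.62, unadjusted p = 0.0115, adjusted p = 0.253). Its 3 cKO values were all higher but far apart. In NSC-like cells the Gdf10 estimate was 2.68 ± 0.67 (edgeR unadjusted p = 0.00339, adjusted p = 0.128), and in oligodendrocyte-like cells 1.40 ± 0.79. Gdf10 was the leading gene of the astrocyte-like cluster, and the part of astrocyte content in the NSC-like value was not tested. Bmp5 was highest in mural-like (50.3 ± 7.88 CPM) and Bmp2 in oligodendrocyte-like cells (29.0 ± 1.65 CPM), with log2 fold changes of -0.17 ± 0.20 and 0.18 ± 0.17. Of the other receptors, Eng and Acvrl1 in endothelial-like cells gave 0.10 ± 0.21 and -0.04 ± 0.19, and Rgma, a co-receptor, was at 259.5 ± 59.1 CPM in control and 325 ± 61.9 in cKO astrocyte-like cells (0.33 ± 0.20, adjusted p = 0.622). Acvr2b, a type II receptor chosen here after its values were seen, was lower in 5 types at an unadjusted p under 0.05, among them NSC-like cells (30.9 ± 8.50 against 14.6 ± 4.96 CPM, -0.94 ± 0.25, adjusted p = 0.122).

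The list of Smads and intracellular brakes had no call in any type. Smad7, an inhibitory Smad and itself a target, was highest in microglia-like cells (478 ± 32.7 CPM, 0.03 ± 0.23), Smad4 in neuroblast-like cells (144 ± 11.2 CPM, -0.23 ± 0.17) and Smad5 in ependymal-like cells (126 ± 24.7 CPM, -0.11 ± 0.15). In NSC-like cells, 1 of the 9 genes of this list had an unadjusted p under 0.05 and the median log2 fold change was 0.07. The estimates over 0.6 in size, named after their values were seen, were those of the decoy receptor Bambi in neuroblast-like (1.04 ± 0.38, adjusted p = 0.507), neuron-like (-1.06 ± 0.49, adjusted p = 0.99997) astrocyte-like (-1.10 ± 0.57, adjusted p = 0.553) and NSC-like cells (-0.62 ± 0.34, adjusted p = 0.462), Smad9 in endothelial-like (1.98 ± 0.90, adjusted p = 0.9996), ependymal-like (-0.85 ± 0.46, adjusted p = 0.688) and NSC-like cells (0.66 ± 0.43, adjusted p = 0.545), Smad6 in ependymal-like cells (0.68 ± 0.34, adjusted p = 0.643) and Smad7 in neuron-like cells (0.64 ± 0.22, adjusted p = 0.99997). Of the other targets, Hey1 and Msx1 were highest in ependymal-like cells. Hey1 gave -0.21 ± 0.18 there, and Msx1, at 64.9, 76.4 and 40.9 CPM in control and 45.9, 16.1 and 11.3 CPM in cKO, gave -1.17 ± 0.51 (unadjusted p = 0.0639, adjusted p = 0.636). Msx1 had its lowest p in astrocyte-like cells, at 36.5, 39.4 and 21.95 CPM in control and 20.7, 8.09 and 7.92 CPM in cKO, all lower (-1.34 ± 0.36, unadjusted p = 0.00332, adjusted p = 0.13), and it gave -0.90 ± 0.44 in NSC-like cells (adjusted p = 0.427). Msx1 estimates lay below 0 in every type in which it was tested. The remaining ones were TAP-like (-0.67 ± 0.32), endothelial-like (-0.51 ± 0.23), mural-like (-0.43 ± 0.36) and oligodendrocyte-like cells (-0.25 ± 0.64). Atoh8, highest in endothelial-like cells in control (7.26 ± 0.943 CPM), was at 2.22, 2.88 and 1.24 CPM in control and 3.49, 23.2 and 10.95 CPM in cKO NSC-like cells (2.67 ± 0.68, unadjusted p = 0.00429, adjusted p = 0.135).

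Of the partners of Id proteins, Olig1, a lineage factor of oligodendrocytes, was highest in OPC-like cells (1611 ± 424 CPM). In NSC-like cells it was at 31.7, 21.03 and 21.4 CPM in control and 13.4, 4.85 and 13.7 CPM in cKO (-1.02 ± 0.31, unadjusted p = 0.00789, adjusted p = 0.173). In astrocyte-like cells it was at 35.7 ± 8.24 CPM in control and 17.4 ± 7.25 in cKO, again without overlap (-0.97 ± 0.26, adjusted p = 0.0876). None of the 6 partners tested, Olig1 among them, had an estimate above 0 in neuroblast-like, endothelial-like or mural-like cells. Tcf4, an E protein, was highest in neuroblast-like cells (3164 ± 517 CPM in control, 2365 ± 427 in cKO, -0.35 ± 0.22), and Olig2 in OPC-like cells (689.5 ± 170 CPM, -0.26 ± 0.21).

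Genes whose distribution over the 11 types and 3 control libraries was most like that of a member were ranked among 14007 genes by Pearson's r of log2(CPM + 1) over 33 points, which share libraries and depth. Id1 was nearest to Ccdc141 (r = 0.95), Alpl (0.95) and Ephb4 (0.94), and Id3 to Tmem51 (0.95), Slco1c1 (0.95) and Prex2 (0.95). Id2 was nearest to Acss1 (0.91), Apoe (0.91) and Naprt (0.91), and Id4 to Lrrc9 (0.93), Nme7 (0.93) and Mapk4 (0.93). The nearest genes to Bmp4 were Susd5 (0.95), Gm15222 (0.93) and Cspg4 (0.90), and Cspg4 encodes the precursor surface protein NG2. Bmp6 was nearest to 1700088E04Rik (0.95), Iqub (0.94) and Riiad1 (0.94), and Bmp7 to Plpp4 (0.89), Etv4 (0.87) and Fzd9 (0.86). Bmpr1b was nearest to Scara3 (0.96), Gm266 (0.95) and Slc1a2 (0.95), the last being the main glutamate transporter of astrocytes. Bmpr2 was nearest to Col4a3bp (0.93), Degs2 (0.92) and Slc39a10 (0.92), and Bmpr1a reached only 0.81 with Pdha1, 0.80 with Gk and 0.79 with Zfp446.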

How the data were processed

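The 7 libraries were deposited as matrices of UMI counts per gene and cell barcode, whole and not normalized, which the authors made with Cell Ranger. The file headers name version 6.0.1 for control 1 and 2 and cKO 1 and 2, and 6.1.1 for the others, and the submitters' processing notes name 6.1.1 and the genome build mm10. Control and cKO libraries were both read with each version, and a fit with the version as a block is among the alternatives. The authors' cell annotation was not used here.

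Cells with 500 to 7000 genes and at most 10% mitochondrial counts were kept. Libraries were integrated and clustered in Seurat 5.3.0 (2000 variable features without the 59 member and pathway genes, 30 components, resolution 0.15, 18 clusters) and named from fixed marker lists. A cluster of shallow glia, a replicating cluster, a small cluster led by Neurod1 and the fibroblast-like, erythroid-like and lymphocyte-like cells were given as levels only. Scrublet in scanpy 1.11.5 marked 949 doublets (2.19%), which were left in and removed in an alternative. UMI counts were summed per library and type and tested with edgeR 4.0.16 (filterByExpr with a minimum count of 10, TMM, robust quasi-likelihood F test, 1 fit of the 7 libraries per type, Benjamini-Hochberg adjustment), after a check on simulated data. Standard errors were derived from the F statistic. The 95% intervals were formed from these with a normal quantile, so they are approximate and narrower than the F test implies. Some leave out 0 where the test does not. That of Id3 in TAP-like cells was 0.175 to 1.974, at an unadjusted p of 0.0606 in the edgeR F test. Calls rest on the test and not on the intervals. Fold changes are on the fitted log2 scale with edgeR's prior count. DESeq2 1.42.0, RLE scaling, no filter, blocks, other cell definitions and leaving out each library were alternatives. Libraries are separate pools of mice, and n counts libraries.

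Replicate numbers are shared by the groups. Deviations from the group mean correlated at over 0.1 in all 3 same-numbered pairs in 3 types. These were oligodendrocyte-like (0.14 to 0.41), endothelial-like (0.13 to 0.38) and mural-like cells (0.12 to 0.38), and the block changed no member call in them. In the other types the pairs numbered 1 and 3 correlated at over 0.1 as well, and the pair numbered 2 did not. The main fits hold no block in any type, so their tests are unpaired.

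The members and gene lists were chosen with earlier results of these data known. Text names all members, pathway genes that were called, up to 3 others per list with the highest control level, and the 3 genes most like each member. Acvr2b, Bambi, Smad6 and Smad9 fall outside this rule and were named after their values were seen. Reference sequences are RefSeq's, and gene positions are GENCODE's. Results that need an item withheld for evaluation are not reported here.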

Additional observations from a re-analysis of the deposited data

Results flagged for a closer look

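Bmpr1b went opposite ways in different types without overlap between the groups, and the difference was not tested. Of the 110 member and type pairs, 19 had no overlap, 11 higher and 8 lower in cKO, and the share over all genes was not computed. Bmpr1b in OPC-like cells did not pass the filter on low counts. It was higher in every cKO library in NSC-like cells (59.7 ± 15.1 CPM in control, 85.9 ± 3.59 in cKO) and ependymal-like cells (4.73 ± 2.29 and 11.4 ± 2.95 CPM), and lower in every cKO library in OPC-like cells (2.31 ± 0.450 and 1.04 ± 0.922 CPM), which held 35 UMIs of it in all. Erythroid-like cells, which should lack the gene, held 10.4 to 68.3 CPM over the 7 libraries. The control mean in NSC-like cells and the levels in ependymal-like and OPC-like cells were not above that range. The range rests on 32 UMIs, and at equal depth Bmpr1b was in 15.0% of NSC-like and 1.85% of erythroid-like cells (medians over libraries). The log2 ratio of the cKO to the control mean differed by 1.67 between NSC-like and OPC-like and by 2.42 between ependymal-like and OPC-like cells.

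Values also lay above the controls in cells that entered no comparison. In the cluster of shallow glia (3120 cells, median 1155 UMIs), Id1 averaged 154 ± 30.3 CPM in cKO against 91.6 ± 16.6 in control, and Bmpr1b 79.4 ± 33.3 against 40.4 CPM (32.3 to 52.9) in control. In the replicating progenitor cluster led by Ung, Cdc6 and Mcm2, Id3 averaged 37.0 ± 13.1 CPM in cKO against 23.4 ± 4.54 in control. Bmp4 and Bmp7 were lower in every cKO library of that cluster, at 0.808 ± 0.458 against 0 CPM for Bmp4, on 20 UMIs in all, and at 1.37 ± 1.02 against 0.121 ± 0.209 CPM for Bmp7, on 31 UMIs. None of these Id1 and Id3 values, nor the control values of Bmpr1b, lay above the range of erythroid-like cells over the 7 libraries (4.14 to 196 CPM of Id1 and 34.2 to 526 CPM of Id3). The top of both ranges came from the 16 such cells of cKO 1, and erythroid-like cells of the control libraries had 43.0, 61.3 and 29.7 CPM of Id1. In fibroblast-like cells, Bmp4 averaged 136 ± 35.5 CPM in cKO against 36.4 ± 22.5 in control, and Bmp7 171 ± 46.0 against 71.4 ± 32.5 CPM. The cKO libraries held 23 to 70 fibroblast-like cells each, and control 2 held 1235 such cells with the lowest levels of both ligands. The cluster raised 3 of 5 fibroblast markers, at a median of 1436 UMIs. The part of cell numbers and of cell identity in these values was not tested. The paper left out a cluster that it found in a single control sample, and whether these cells match it was not tested.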

How the results depend on the processing

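The number of member and type pairs called was 0 with RLE scaling, the Cell Ranger version as a block, the fit without the DKO library, at most 5% mitochondrial counts, doublets removed and resolution 0.3. It was 3 with DESeq2, 1 with cell types by marker score, 5 without the filter on low counts and 0 to 9 on leaving out a library, the 9 without cKO 1. With the replicate block, which the main fits do not hold, 6 pairs were called. Calls over all genes rose too, in astrocyte-like cells from 1.23% to 4.53% without cKO 1 and 4.52% with the block, and in ependymal-like cells from 0.158% to 2.62% and 1.74%. The number of pathway gene calls was 1, and became 4 with the Cell Ranger block, 10 with DESeq2, 3 at the stricter mitochondrial limit, 2 by marker score, 16 without the filter, 16 with the replicate block and 0 to 22 on leaving out a library, the 22 without cKO 1. Members whose cKO effect differed between NSC-like and other cells numbered 0, became 6 without the filter and ran from 0 to 9 on leaving out a library, the 9 without cKO 1. The 20 fold changes with an unadjusted p under 0.05 kept their direction in all 320 alternative fits, and 21 of these fits passed the threshold. Of 50 alternative values of a member's control level in its highest type, 9 moved by at least the SD between libraries, 6 of them of Bmp4 and Bmp7. Among the 11 types, the highest became mural-like for Bmp4 by marker score (57.5 CPM) and at resolution 0.3 (57.2 CPM), and NSC-like for Id4 after thinning (1161 CPM). At resolution 0.3 the committed precursors form a cluster of their own, outside the 11 types, which holds 373 CPM of Bmp4 and 2.03 CPM of Bmp7, and this split moves both genes in OPC-like cells. The cause of the other changes was not tested. With 3 libraries a group, members of low level (Bmp4 outside 3 types, Bmp7, Bmpr1b outside glia) rest on few UMIs, and a difference in them may not have been detectable at this depth.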
